A study of Bos taurus with 12 samples.

Results

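The regions described here were 768 stretches of the bovine genome in which peaks of methylated DNA were called in the low eluates and in no library of the medium or high eluates. They were found by joining the peaks of the 12 single-library lists wherever 1 bp or more was shared on chromosomes 1 to 29, which gave 74459 joined regions, and by keeping those with a peak in at least 3 of the 4 low libraries and in none of the 4 medium and 4 high libraries. The low-only regions made up 1.03% of all joined regions. The same rule applied to the medium libraries kept 2404 regions (3.23%) and applied to the high libraries kept 122 (0.164%). The regions were chosen by the presence and absence of peak calls in the 12 libraries and by no other value, and that pattern of calls is given as a description, without a test. The lists that the authors called on merged replicates held a medium or high peak on 450 of the 768 (58.6%), so low-only refers here to the single-library lists.

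The DNA came from longissimus muscle of Angus steers of about a year of age that were kept on the same diet, 2 animals with tender beef (TE) and 2 with tough beef (TO), which were drawn from the animals with the lowest and the greatest shear force. Methylated DNA was captured from each animal and released in 3 serial elutions, labelled high (H), medium (M) and low (L), so that LTE_1 and LTE_2 are the low libraries of the tender animals and LTO_1 and LTO_2 those of the tough animals. After removal of duplicate tags the low libraries held 5770411 to 7981292 tags, the medium libraries 5969045 to 6886676 and the high libraries 3677473 to 4843388. The sources differ on which salt concentration gave which level, so the libraries are named by their labelled level only, and each library is a bulk sample of a whole muscle piece with no separate record of its cell types.

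DNA methylation in mammals sits mainly on cytosines of CpG dinucleotides. Methyl-CpG binding domain sequencing (MBD-seq) uses a protein that binds methylated CpGs to pull down sheared DNA, and fragments with more methylated CpGs are held more tightly, so that serial elution sorts fragments by the density of methylated CpGs they carry. A peak call says that fragments piled up over the local background in that eluate, and the absence of a call does not say that the DNA is unmethylated.

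Most regions seen in the low eluate alone were seen in a single library. Of 23648 regions with a low peak and no medium or high peak, 20338 (86.0%) had the peak in 1 low library, 2542 in 2, 571 in 3 and 197 in all 4, and only the last 2 classes form the 768. Seen from the other side, 8770 joined regions had a peak in at least 3 low libraries and 8.76% of them were low-only, whereas 3932 (44.8%) had a peak in every medium and every high library. Just outside the rule lay 528 regions that differed by a call in 1 medium library and 11 that differed by a call in 1 high library. The medium call was in MTE_1 in 246 of the 528, in MTE_2 in 205, in MTO_1 in 40 and in MTO_2 in 37, and the tender medium libraries had more peaks overall (34468 and 36663) than the tough ones (24746 and 25571).

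The regions just inside and just outside the rule had peaks of similar size. Fold enrichment, the ratio of the tags at a peak's summit to the local background that MACS2 computed for the authors, had a median of 6.23 over the low peaks of members found in 3 libraries and of 5.71 over those of members found in 4. It was 6.38 in regions with only 2 low libraries and 6.55 in the low peaks of the 528 regions with 1 medium call, where the medium peak itself had a median of 6.49. The median pileup, the number of tags stacked at the summit, was 9 in members found in 3 libraries, 16 in members found in all 4 and 9 in regions with 2.

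The low-only regions were divided into 2 kinds by their pileup. In 634 of the 768 (82.6%) the highest pileup over the low libraries stayed under 40 tags, and these low-pileup regions had a median highest pileup of 11 tags and a median fold enrichment of 6.42. In the other 134 (17.4%, Wilson 95% interval 14.9 to 20.3%) the highest pileup was 40 tags or more, with a median of 108 tags and a median fold enrichment of only 2.66. The bound of 40 tags was chosen after the values were seen. Counts fell from 578 under 20 tags to 40 at 20 to 29, 16 at 30 to 39 and 5 at 40 to 49. The other 129 were spread over 50 to 268 tags. These ranges differ in width, so the counts do not show a gap at the bound. A highest pileup of 40 or more was found in 52.9% of the other regions with at least 3 low libraries, in 3.87% of the medium-only regions (by their medium pileup) and in 0.802% of the regions in 1 low library only. The local background of a peak is taken from up to 10000 bp around it, so a high pileup with a low fold enrichment means that the surroundings carried many tags too.

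**Figure D1:**
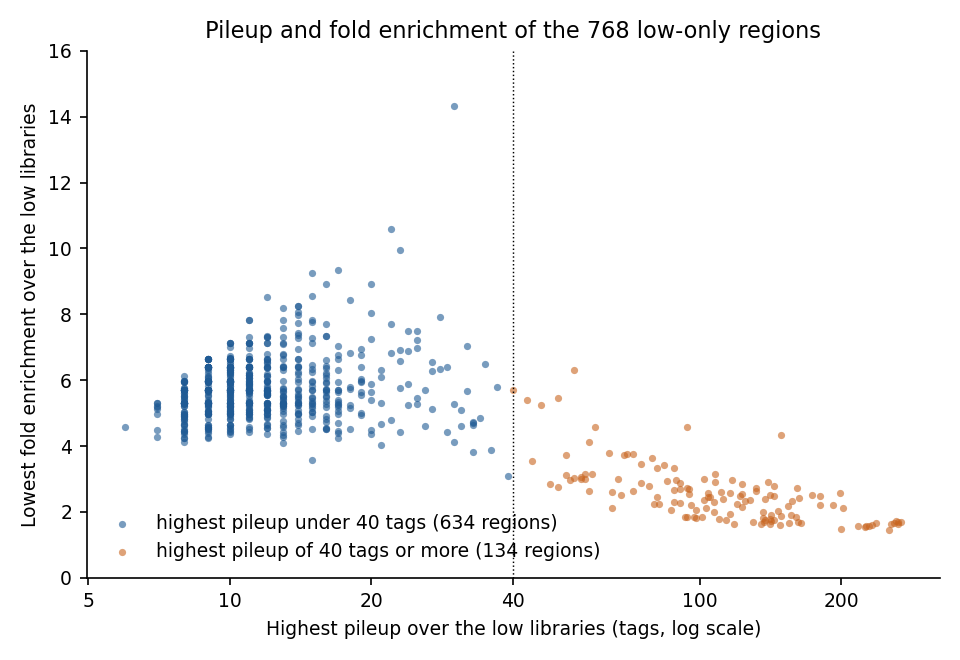
Each point is 1 of the 768 low-only regions, with the highest pileup over the low libraries on a log x axis (tags) and the lowest fold enrichment over the low libraries that have the peak on the y axis; colours mark the bound of 40 tags (dotted line). The 634 low-pileup regions (blue) spread around a median highest pileup of 11 tags. The 134 high-pileup regions (orange) lie to the right, at a median of 108 tags and with lower fold enrichment.

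The 4 low libraries gave like medians within each kind, over the regions in which they had a peak. LTE_1 had a peak in 79.1% of the high-pileup and 60.9% of the low-pileup regions, LTE_2 in 99.3% and 85.5%, LTO_1 in 81.3% and 84.2%, and LTO_2 in 126 of the 134 and 565 of the 634. In the high-pileup regions the median pileup was 84.5 tags in LTE_1, 97 in LTE_2, 105 in LTO_1 and 96 in LTO_2, and the median fold enrichment was 2.74, 2.69, 2.56 and 2.67 in the same order. In the low-pileup regions the median pileup was 9 tags in LTE_1, 10 in LTE_2, 9 in LTO_1 and 10 in LTO_2, and the median fold enrichment was 6.70, 6.41, 6.08 and 6.55. A peak in all 4 low libraries was found in 72 of 134 high-pileup regions (53.7%, 45.3 to 62.0%) and in 125 of 634 low-pileup regions (19.7%, 16.8 to 23.0%).

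The strongest low-only region by its weakest library was chr6:4626309-4626599 (bosTau8, as are all coordinates). Its fold enrichment was 14.3 in LTE_1, 18.8 in LTE_2, 16.4 in LTO_1 and 14.6 in LTO_2, with 20, 30, 24 and 20 tags at the summit, and its 4 summits lay within 8 bp of each other. The tender and tough libraries overlapped there. The nearest medium or high peak of a single library was 53.3 kb away, but the peak list of the merged MTE replicates did hold a peak on it, with a fold enrichment of 8.58. It was 1 of only 2 regions in which every library with the peak reached a fold enrichment of 10.

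The other was chr6:115477398-115477804, also present in all 4 libraries, with fold enrichments of 10.6 (LTE_1), 12.9 (LTE_2), 11.9 (LTO_1) and 11.8 (LTO_2). The merged MTE and HTE lists held peaks on it. The third region by its weakest library was chr4:26225618-26225901 with 11.5, 15.9, 13.1 and 9.96 in the same order of libraries. Here the highest value came from a tender and the lowest from a tough animal, the summits lay within 4 bp, no merged medium or high list held a peak, and the nearest single-library medium or high peak was 101 kb off. Next came chr2:6988764-6989031 with 9.60, 10.1, 9.36 and 11.8, which lay under peaks of the merged MTE, MTO and HTE lists. On chr26:31672069-31672421 the fold enrichment was 8.93, 9.16, 10.6 and 13.6, so that both tough libraries lay above both tender ones. On chr15:81394119-81394475 the 4 values were nearly equal, at 8.55, 8.54, 8.63 and 8.54.

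The remaining 4 of the 10 strongest regions present in all 4 low libraries were chr14:843532-843849, chr5:25743890-25744145, chr15:84918039-84918321 and chr6:6224987-6225179, whose lowest fold enrichments were 8.43, 8.18, 7.91 and 7.83. All 10 had at most 30 tags in any library, and so were of the low-pileup kind. Of the 10, 3 lay on chromosome 6, and 6 had no peak in the merged medium and high lists. Over the 768 regions, the lowest fold enrichment was at least 5 in 519, at least 6 in 193, at least 7 in 56 and at least 8 in 15. These counts were not set beside those of other regions.

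Regions found in 3 libraries reached similar values. The strongest that lacked LTE_1 was chr29:13592832-13593084 with 9.25 in LTE_2, 9.96 in LTO_1 and 11.4 in LTO_2. The strongest that lacked LTE_2 was chr6:5499995-5500186 with 7.84 in LTE_1, 7.97 in LTO_1 and 8.35 in LTO_2. The strongest without LTO_1 was chr26:47561960-47562209 with 8.93 in LTE_1, 9.21 in LTE_2 and 10.6 in LTO_2, and the strongest without LTO_2 was chr10:58899050-58899310 with 9.26, 8.24 and 8.77 in LTE_1, LTE_2 and LTO_1.

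The 768 regions had a median width of 265 bp (interquartile range 220 to 328 bp, range 162 to 865 bp), and 31 (4.04%) were 500 bp or wider. This median was close to that of the medium-only regions (259 bp) and above that of all other joined regions (213 bp). Together the 768 covered 221294 bp, and 753 (98.0%) consisted of a single peak in each library that had one. The shares with a single peak and of 500 bp or wider were not set beside those of other regions. Among regions in 3 low libraries the median width was 257 bp in low-only regions and 370 bp in those that also had a medium or high peak, and among regions in 4 it was 285 bp and 474 bp. With only 1 or 2 medium or high libraries the median was nearer, at 298.5 bp in 3 low libraries and 304 bp in 4. A region also widens with every medium or high peak joined to it, so these widths are not independent of the rule. The summits of the low peaks spanned a median of 60 bp in low-only regions with 3 libraries, 72 bp in those that also had 1 or 2 medium or high libraries and 83 bp in all others with 3, and 58, 61 and 66 bp with 4. Medium or high peaks can join low peaks that do not touch, so this span also depends on the rule.

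The widest region, chr1:148567254-148568118, was 865 bp wide and carried 1 weak peak in each low library, with fold enrichments of 6.20, 5.62, 5.07 and 6.76 (LTE_1, LTE_2, LTO_1, LTO_2). Its summits spread over 251 bp. The next, chr2:29195165-29195984, was 820 bp wide and was made of 7 peaks, and its strongest peaks had fold enrichments of 5.46, 5.50, 5.31 and 8.21. The third, chr9:102291200-102291994, was 795 bp wide, had values of 8.93, 6.52, 4.95 and 5.19, and lay 175 bp from a medium or high peak. The summits of the low libraries spread over 428 bp in the second of these and over 258 bp in the third.

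LTE_1 was the low library most often without a peak. Of the 571 regions found in 3 low libraries, 276 (48.3%, 44.3 to 52.4%) lacked LTE_1, 93 (16.3%) lacked LTE_2, 125 (21.9%) lacked LTO_1 and 77 (13.5%) lacked LTO_2. Either tender library was lacking in 369 (64.6%, 60.6 to 68.4%), but this was less than the background, since it was so in 84.2% of all 3640 regions found in exactly 3 low libraries. In the 3069 of those that also had a medium or high peak, LTE_1 was lacking in 68.1%, LTE_2 in 19.8%, LTO_1 in 7.01% and LTO_2 in 5.12%. LTE_1 had the fewest tags of the low libraries (5770411) and the fewest peaks (9944, against 17487, 28671 and 29418 in LTE_2, LTO_1 and LTO_2), and the part of this in the calls was not tested. With the 9944 best peaks of every library used instead, 668 regions met the rule. A tender library was lacking in 38.8% of those found in 3, so that a tough library was then lacking more often than a tender one. The background share was not computed with these peaks.

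**Figure D2:**
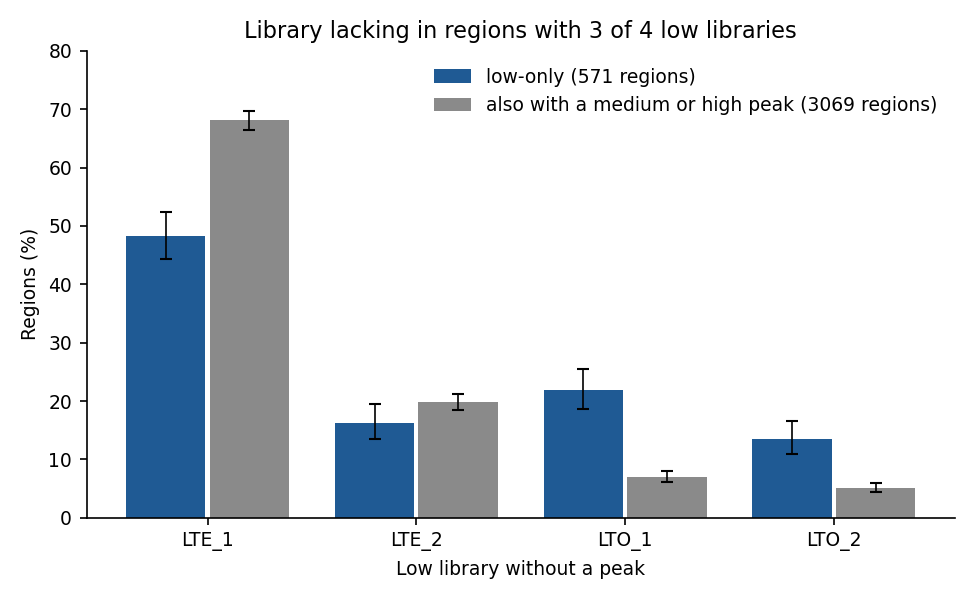
The bars give, for regions with a peak in exactly 3 of the 4 low libraries, the percentage that lacked the low library on the x axis, in low-only regions (blue, n = 571) and in regions that also had a medium or high peak (grey, n = 3069), with Wilson 95% intervals. LTE_1 was lacking most often in both, and LTO_1 and LTO_2 were lacking more often in low-only regions (21.9% and 13.5%) than in the others (7.01% and 5.12%).

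The median fold enrichment and width of the called low-only peaks did not differ between tender and tough animals beyond the spread between the 2 animals of a group. The pileup scaled to depth was higher in both tender animals. Each median covers only the members called in that library, so the 4 medians rest on different regions and leave out values too low for a call. The median fold enrichment over the members with a peak was 6.18 in LTE_1 (492 members), 6.18 in LTE_2 (675), 5.97 in LTO_1 (643) and 6.39 in LTO_2 (691). Both tender values lay between the 2 tough values, and the difference of the group means on the log2 scale was -0.000362 (two-sided exact permutation test over the 4 libraries, p = 1.00). With 2 libraries against 2 this test cannot give a p under 0.333. The median peak width was 186, 188, 196 and 181 bp in the same order, and the difference, tough minus tender, was 1.50 bp (exact p = 1.00). The pileup per 1000000 tags was 1.73 and 1.53 in the tender libraries and 1.25 and 1.39 in the tough ones, so that here the groups did not overlap, with a log2 difference of -0.31 and the smallest p the design allows (exact p = 0.333). The tender libraries also had fewer tags (5770411 and 7165381) than the tough ones (7981292 and 7212507), the median pileup was 10 or 11 tags in every library before scaling, and the part of depth in this difference was not tested. With an equal number of peaks taken from every library the log2 difference was -0.03 (exact p = 1.00), and with a peak asked of all 4 low libraries it was -0.10 (exact p = 0.667).

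Region by region, fold enrichment was compared between animals in the 197 members present in all 4 low libraries. A call was needed in every library, so values too low for a call are left out. The spread between libraries was not computed for other regions. The fold enrichment had a median coefficient of variation of 12.5%, and the highest library stood at a median of 1.31 times the lowest, with a largest ratio of 2.74. Both tough values lay above both tender values in 30 of the 197 (15.2%), and this was so in 20.8% of all 5130 regions in 4 low libraries. Both tender values lay above both tough values in 49 (24.9%), with a background of 17.3%. The median difference, tough minus tender, was -0.04 on the log2 scale in the members and 0.01 in all 5130 regions.

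Low-only regions formed a larger part of the shorter lists. They took up 5.17% of the autosomal peaks of LTE_1, 4.03% of those of LTE_2, 2.34% in LTO_1 and 2.44% in LTO_2. Their median fold enrichment was close to that of the other peaks of the same library, which was 5.79, 5.94, 5.97 and 6.34. It lay further from the other regions with at least 3 low libraries, whose median was 5.11, 5.28, 5.31 and 5.69 with pileups of 71, 72.5, 68 and 70 tags, against 10, 11, 10 and 10 tags in the members.

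The distance to the nearest single-library medium or high peak also differed between the 2 kinds of region. Over all 768 its median was 8.43 kb (interquartile range 0.828 to 30.7 kb), 137 (17.8%) lay within 500 bp and 62 (8.07%) lay over 100 kb away. In the high-pileup regions the median was 410 bp, 118 of the 134 (88.1%) had a medium or high peak within 1000 bp and none was over 100 kb away. In the low-pileup regions the median was 12.7 kb, 89 of the 634 (14.0%) had such a peak within 1000 bp, and all 62 of the distant regions were of this kind. For comparison, the 20338 regions in 1 low library only lay at a median of 18.8 kb from a medium or high peak.

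**Figure D3:**
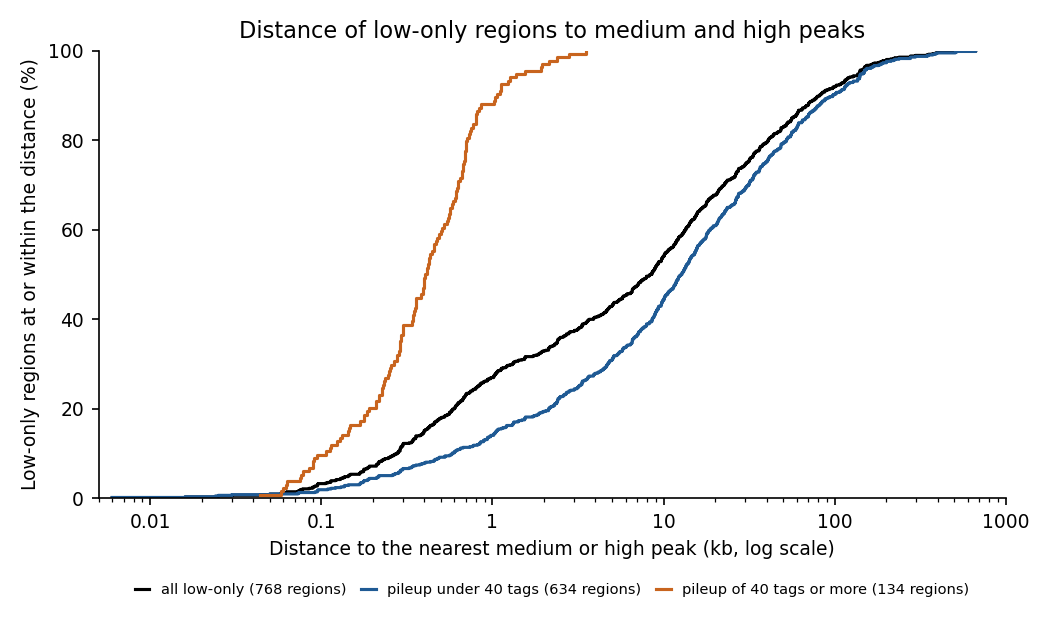
The curves give the cumulative percentage of low-only regions (y axis) at or within a distance from the nearest medium or high peak of a single library (x axis, kb, log scale), for all 768 regions (black), the 634 of low pileup (blue) and the 134 of high pileup (orange). The high-pileup regions reach 88.1% at 1 kb, where the low-pileup regions are at 14.0%.

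The medium peaks next to the high-pileup regions were themselves high. The nearest peak of MTE_1, MTE_2, MTO_1 and MTO_2 lay at a median of 486, 446, 479 and 451 bp, had a median pileup of 134, 129, 142 and 140 tags, and in 85.8 to 89.6% of cases belonged to a joined region that also held a low peak. Next to the low-pileup regions the nearest medium peaks lay at 18.7, 19.3, 35.9 and 31.8 kb and had a median of 11 tags in every library, and in 63.3 to 71.5% of cases they too belonged to a region with a low peak. The nearest medium peaks thus differed in distance and height between the 2 kinds, and in most cases of either kind they belonged to regions with a low peak. The same share over all medium peaks was not computed, so these shares have no background and cannot be called particular to the low-only regions.

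The farthest region was chr2:29195165-29195984, the 820 bp region described above, at 668 kb from any single-library medium or high peak. The next were chr9:71147729-71148009 at 515 kb, with fold enrichments of 10.4, 9.25, 8.63 and 7.12 (LTE_1, LTE_2, LTO_1, LTO_2), and chr7:60354429-60354739 at 508 kb, with 4.98, 6.64 and 6.41 in LTE_2, LTO_1 and LTO_2. At the other end, chr24:52309179-52309430, chr21:66110439-66110672 and chr8:105761207-105761449 had a medium or high peak 6, 16 and 24 bp away. These 3 would have been joined with that peak if peaks up to 24 bp apart had been counted as shared. All 6 of these regions were in 3 or 4 low libraries and all 6 lay under a peak of a merged medium list.

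A larger part of the high-pileup than of the low-pileup members occurred in runs. The share in runs was not computed for the other joined regions, so it cannot be called particular to the low-only regions. With starts at most 10 kb apart counted as a run, 34 runs held 99 of the 768 members, among them 74 of the 134 high-pileup members (55.2%) and 25 of the 634 low-pileup members (3.94%). There were 6 runs of 4 or more members with 36 members in all, every one of the high-pileup kind. Of these, 3 lay on chromosome 27, at chr27:23701549-23726880 (6 members), chr27:26334323-26360393 (8) and chr27:43562804-43581338 (8). The others were chr4:103650919-103660701 (6), chr6:8898307-8906257 (4) and chr9:50055987-50058906 (4).

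The run on chromosome 4 had a regular order. Its 6 members started 1721 to 2096 bp apart over 9.78 kb, and between each member and the next lay a region with medium calls, so that 10 of the 11 pairs of neighbouring regions switched between low-only and not low-only. The first member had 52 tags in LTE_1, 55 in LTE_2, 65 in LTO_1 and 44 in LTO_2. The region that followed 0.986 kb from the start of the run had 86, 84, 83 and 81 tags in MTE_1, MTE_2, MTO_1 and MTO_2, a peak in HTE_1 and 1 low peak, in LTO_2. The second member had 54, 60, 88 and 57 tags in the 4 low libraries, and the region after it had 61, 72, 56 and 55 tags in the 4 medium libraries and no low peak.

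The third member of that run had 54, 65, 79 and 67 tags in the 4 low libraries and was followed by a region called in MTE_1 only, with 43 tags. The fourth member lacked LTE_1 and had 58, 75 and 56 tags in LTE_2, LTO_1 and LTO_2. It was followed by a region with 75, 59, 61 and 57 tags in the medium libraries and no low peak. The fifth had 47, 51, 57 and 44 tags, and the sixth, without LTE_2, had 34, 48 and 45 in LTE_1, LTO_1 and LTO_2. The low-only and the medium regions of this run were thus of like height in the eluate that had them, and no merged MTE or MTO list held a peak on any of the 6 members.

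The runs on chromosome 27 were less regular. At chr27:26334323-26360393 the 8 members were mixed with 16 other regions, of which 7 had medium or high calls and no low call, 6 had both and 3 had a low call in 1 or 2 libraries. At chr27:43562804-43581338 each of the 12 interspersed regions with medium or high calls also had a low call. The members there had 87 to 121 tags in LTE_1, 76 to 145 in LTE_2, 102 to 199 in LTO_1 and 81 to 164 in LTO_2. At chr27:23701549-23726880 the members had 41 to 49, 41 to 60, 54 to 89 and 44 to 62 tags in the same order. At chr27:26334323-26360393 they had 45 to 77, 44 to 118, 50 to 114 and 42 to 120 tags.

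**Figure D4:**
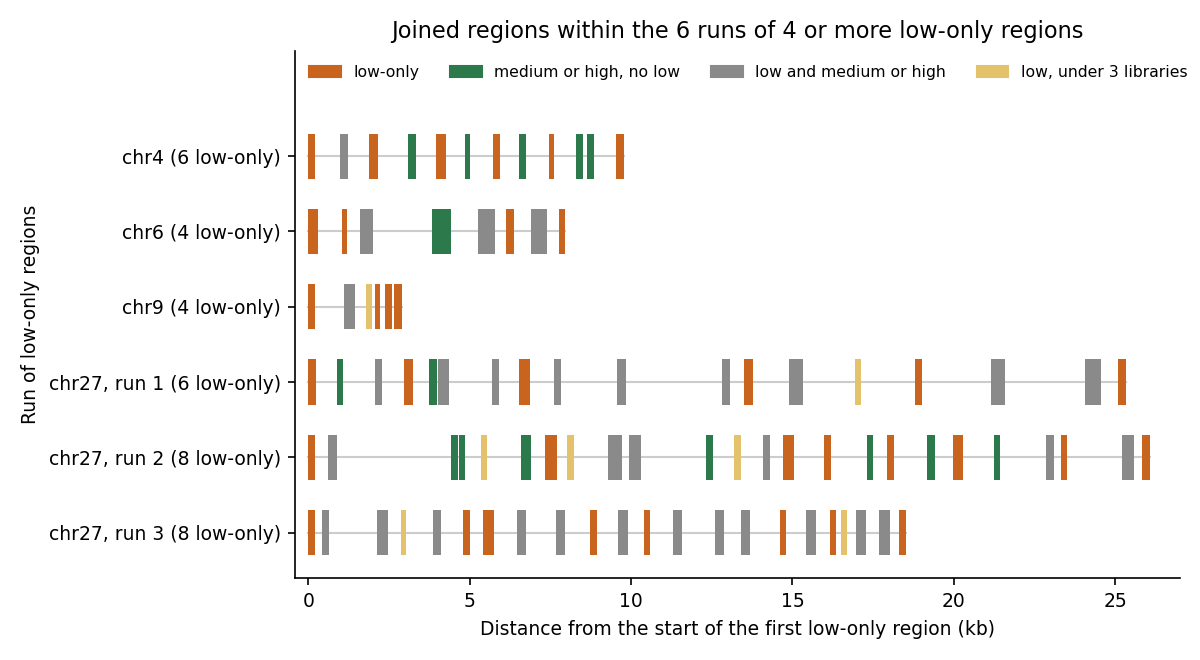
Each row is 1 of the 6 runs of 4 or more low-only regions, with the distance from the start of its first member on the x axis (kb); boxes are joined regions drawn to scale and coloured by the eluates in which peaks were called. On chromosome 4 low-only regions (orange) alternate with regions that have medium or high calls, and on chromosome 27 they lie among regions called in both (grey) and, in runs 1 and 2, regions with medium or high calls and no low call (green).

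The low-only regions were spread unevenly over the chromosomes. Chromosome 27 held 56 of the 768 (7.29%, 5.66 to 9.35%), against 2.95% of the other joined regions and 6.37% of the other regions with at least 3 low libraries. This came to 123 low-only regions per 100 Mb up to the last peak of the chromosome. Chromosome 6 held 51 (6.64%, other regions 3.66%), chromosome 8 held 47 (6.12%, other regions 4.04%) and chromosome 14 held 42 (5.47%, other regions 3.43%). The other regions with at least 3 low libraries had 4.96% on chromosome 6, 8.10% on chromosome 8 and 4.19% on chromosome 14. Against this class, the shares on chromosomes 14 and 27 lay within the interval of the low-only regions, and that on chromosome 8 was above it. On chromosome 6 the share of this class lay just below the interval (5.09 to 8.63%). Chromosome 25 held only 6 (0.781%, 0.359 to 1.69%) against 3.37% of the other regions and 2.20% of those with at least 3 low libraries, and the share was also below that of the other regions, outside the interval, on chromosomes 5, 11, 18 and 23. On the other 20 autosomes the share of the other regions lay within the interval. The intervals treat regions as independent, which those in a run are not.

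The excess on chromosome 27 went with the high-pileup kind. Of the 134 high-pileup regions 35 (26.1%) lay on chromosome 27, and the next chromosomes were 8 with 14, 14 with 12 and 29 with 10. The other regions with at least 3 low libraries, of which 52.9% had a highest pileup of 40 or more, had 6.37% on chromosome 27. The share of their high-pileup part alone was not computed, so the 26.1% has no like background. Of the 634 low-pileup regions 21 lay on chromosome 27 (3.31%), and the 2.95% of the other regions was within the interval. On chromosome 6 lay 43 of the 634 low-pileup regions (6.78%) and 8 of the 134 high-pileup regions (5.97%), and on chromosome 25 lay 5 (0.789%) and 1 (0.746%). With a fold enrichment of at least 3 asked of every peak, 32 of 687 regions (4.66%) lay on chromosome 27, and 2.67% of the other regions.

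**Figure D5:**
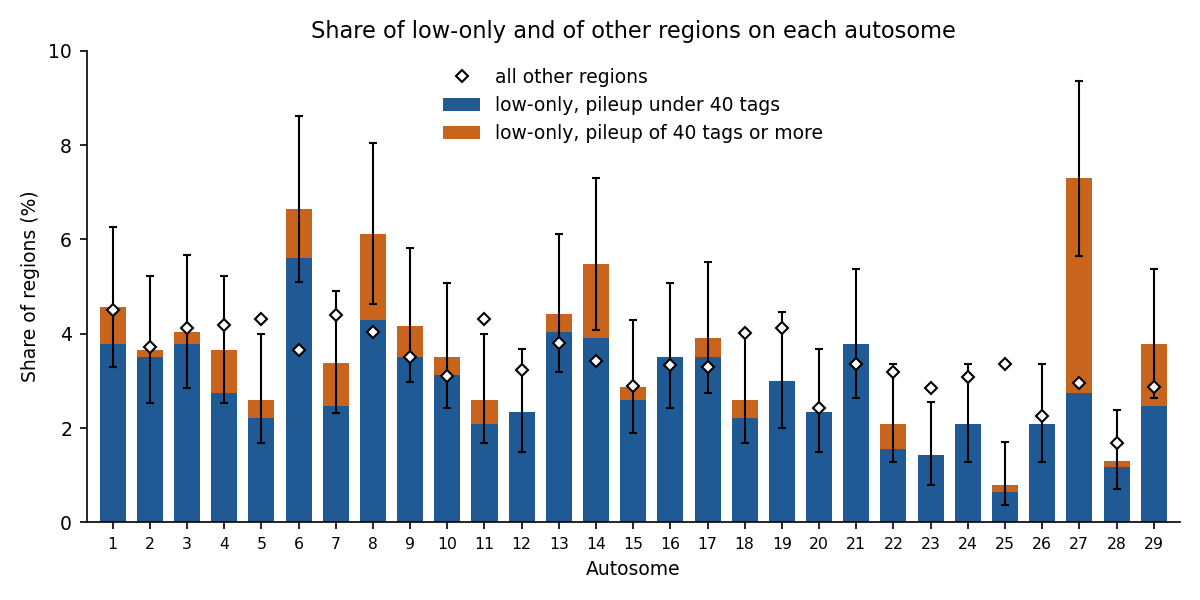
Bars give the share of the 768 low-only regions on each autosome (y axis, %), split into regions of low pileup (blue) and of high pileup (orange), with the Wilson 95% interval of the whole bar, and diamonds give the share of the other 73691 joined regions. Chromosome 27 stands at 7.29% with most of its bar from high-pileup regions, and chromosome 25 at 0.781%, below its diamond.

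In windows of 1 Mb, 18 low-only regions was the highest number and was reached on both chromosomes 14 and 6. In chr14:96756-1096755, at the start of the chromosome, 9 of the 18 were of high pileup. The window held 239 other joined regions, 131 of them with at least 3 low libraries. In chr6:5427428-6427427 none of the 18 was of high pileup, their median highest pileup was 18 tags and their median lowest fold enrichment 6.10. The window held 94 other regions, 42 of them with at least 3 low libraries. In this window the median fold enrichment of the members was 7.84 in LTE_1, 6.43 in LTE_2, 7.93 in LTO_1 and 6.80 in LTO_2. The next window, chr29:29432660-30432659, held 12, of which 9 were of high pileup, with a median highest pileup over the 12 of 234 tags. It held 170 other joined regions, 107 of them with at least 3 low libraries. The windows on chromosomes 14 and 29 were thus also dense in other regions with low peaks.

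Fewer of the low-only regions than of the other joined regions lay near the last peak of a chromosome, and somewhat more lay near its start. Within the last 5 Mb before the last peak of each chromosome lay 100 of the 768 (13.0%, 10.8 to 15.6%), against 20.6% of the other joined regions, 32.1% of the medium-only regions and 8.91% of the other regions with at least 3 low libraries. Within the first 5 Mb lay 75 (9.77%, 7.86 to 12.1%), against 7.55% of the other joined regions and 9.77% of the other regions with at least 3 low libraries.

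Peaks that the authors called on the merged replicates showed how far the absence of a medium or high call rests on single libraries. Of the 768 regions, 764 lay under a peak of the merged LTE list and 760 under one of the merged LTO list. A peak of the merged MTE list lay on 408 (53.1%) and a peak of the merged MTO list on 170 (22.1%), 134 regions had both, and the merged HTE and HTO lists had peaks on 22 and 14. In all, 450 (58.6%, 55.1 to 62.0%) lay under a merged medium or high peak, with a background of 40.3% over the 23648 regions that had a low peak and no medium or high peak in single libraries. Most of that background had its peak in 1 low library, where the share was 37.6%. In the 2542 regions with 2 low libraries it was 55.9% (54.0 to 57.8%), close to that of the low-only regions. The merged lists held 86678 peaks in MTE and 57383 in MTO, more than any single medium library.

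The strength of the merged peaks on these regions is set in part by the rule, which asked for no medium call and at least 3 low calls in single libraries, and is given as a description. In MTE they had a median fold enrichment of 6.06 and a median −log10 q-value of 6.97, against 6.70 and 8.69 for the other peaks of the list, and in MTO 6.30 and 6.52 against 6.61 and 8.94. The merged low peaks on the same regions had 7.32 and 10.8 in LTE (other peaks 5.62 and 6.04) and 7.59 and 12.1 in LTO (other peaks 5.75 and 6.42). Of the 634 low-pileup regions 394 (62.1%, 58.3 to 65.8%) lay under a merged medium or high peak, and of the 134 high-pileup regions 56 (41.8%, 33.8 to 50.3%). The 318 regions under no merged medium or high peak had a median fold enrichment of 5.89 in the low libraries, the 450 others 6.38, and a like part of both was present in all 4 low libraries (24.8% and 26.2%).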

How the data were processed

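Reads cleaned by SOAPnuke were aligned by the authors to the bosTau8 genome using BWA (0.7.7 per the submitters' processing notes), and peaks were called from uniquely mapped reads by MACS2, without a control, at a q-value threshold of 0.01, with 1 tag per position and a background range of 10000 bp. Version 2.1.1.20160309 was used for the 12 single-library lists and 2.1.0.20150731 for the 6 merged lists. The deposited lists give pileup (signal in tags, not divided by depth), fold enrichment (ratio to local background) and the −log10 of the p-value and q-value, all computed by the authors.

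Peaks were joined, counted and compared by position in Python 3.11.15 (pandas 2.3.3, numpy 2.4.6, scipy 1.17.1). Joining was checked against bedtools 2.31.1 (74459 identical regions) and on simulated lists. Where a library had several peaks in a region, the one of highest fold enrichment was used. Two-sided exact permutation tests compared tender with tough libraries. Nothing in the sources says that replicate numbers match animals across groups. Wilson 95% intervals cover counting error only. Named regions were the 10 of highest lowest fold enrichment among those in all 4 low libraries, the strongest lacking each library, the 3 widest, the 3 farthest from and 3 nearest to a medium or high peak, and the densest window. The runs, the bound of 40 tags and the other windows were outside this rule and were chosen after their values were seen. The regions and the lists were chosen with earlier results of these data known. Genes, CpG content and repeats under the regions were not analysed here because a genome of that build was not used.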

Additional observations from a re-analysis of the deposited data

Results flagged for a closer look

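Chromosome X was outside the comparisons above. By the same rule it held 28 low-only regions among 1839 joined regions (1.52%, Wilson 95% interval 1.06 to 2.19%), against 1.03% on the autosomes. Of the 28, 7 had a peak in all 4 low libraries, and of the 21 found in 3 libraries, 15 lacked LTE_1, 2 lacked LTE_2, 3 lacked LTO_1 and 1 lacked LTO_2. No sample's value stood apart from the others of the 4 low libraries by Dixon's criterion in the 5 measures tried. With 4 values only a very large gap passes this criterion, so the result does not show that the libraries were alike. The number of low-only regions with a peak, and their share of a library's peaks, also rest on the calls used by the rule. On the autosomes LTE_1 had a peak in 492 low-only regions, against 675 in LTE_2, 643 in LTO_1 and 691 in LTO_2.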

How the results depend on the processing

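The number of low-only regions, 768, rested most on the number of low libraries asked for. It was 3310 with a peak in at least 2 low libraries, 197 with a peak in all 4, 497 with −log10 q of at least 5, and 318 when the merged medium and high lists also had to be without a peak. Leaving out 1 low library and asking for all 3 others gave 274 (without LTO_2) to 475 (without LTE_1), with 290 without LTE_2 and 327 without LTO_1, and leaving out a medium library gave 807 to 1014 and a high library 769 to 773. The share in all 4 low libraries (25.7%) moved to 29.6% with −log10 q of at least 5, 22.1% with fold enrichment of at least 3, 44.8% with an equal number of peaks taken from every library, 22.6% with peaks up to 500 bp apart joined, 5.95% with at least 2 low libraries and 19.7% under 40 tags, and lay at 25.6 to 27.6% with a medium or high library left out. The share of regions in 3 libraries that lacked a tender one (64.6%) moved to 60.0% with −log10 q of at least 5, 38.8% with the same number of peaks and 54.4% without merged medium and high peaks, and lay at 64.5 to 66.6% with a library left out. The share under a merged medium or high peak (58.6%) moved to 62.2% with fold enrichment of at least 3, 85.5% with the same number of peaks and 62.1% under 40 tags. It lay at 52.9 to 68.5% with a library left out, with the highest values without MTE_1 (68.5%) and MTE_2 (67.2%). The merged lists stayed whole in every setting. Medium or high peaks dropped from the single lists could still count through them, so a rise is in part built into such settings. The share on chromosome 27 (7.29%) moved to 4.66% with fold enrichment of at least 3, 11.2% with all 4 low libraries, 4.35% with at least 2, 9.75% without merged medium and high peaks and 3.31% under 40 tags, and lay at 6.06 to 9.49% with a library left out. The median width lay at 258 to 274 bp with a library left out. The restriction to pileups under 40 tags was added after the data were seen.

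Tough minus tender, the log2 difference in fold enrichment changed sign to 0.17 with the same number of peaks (exact p = 0.333) and to 5.068e-06 with 50% overlap, and lay between -0.0487 (without LTO_2) and 0.048 (without LTO_1), with 0.000521 without LTE_2. The difference in peak width lay between -6 bp (without LTO_1) and 9 bp (without LTO_2). The pileup per 1000000 tags stayed lower in tough libraries under all 14 alternatives, at -0.40 to -0.22 with a low library left out, but the difference shrank to -0.03 with the same number of peaks (exact p = 1.00) and to -0.10 with a peak in all 4 low libraries. The 14 are not independent, since they rest on the same 4 low libraries, and pairing the replicates leaves the difference unchanged by construction. With the replicates paired by number as a block, the exact sign-flip test gave p = 1.00 for fold enrichment (-0.000362), p = 1.00 for width (1.50 bp) and p = 0.5, its smallest, for pileup per 1000000 tags (-0.31). Same-numbered tender and tough libraries come from different animals, and the correlation of the replicate difference in log2 fold enrichment was 0.056 over 197 regions. The causes of these changes were not tested. With 5770411 to 7981292 tags per low library, peaks of about 10 tags are near the limit of a call, and a missing call is not a measured absence.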
